A study of Mus musculus with 16 samples.

Results

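The Ifi200 genes, also called the PYHIN family, form a single cluster on mouse chromosome 1. The 10 members described here are Aim2, Ifi202b, Ifi203, Ifi204, Ifi205, Ifi209, Ifi211, Ifi213, Ifi214 and Mndal. They were taken by gene name from the 55335 gene rows of a count table, and all 10 were found. They were picked because earlier results of these data showed neighbouring relatives differing in opposite directions between ko and wt cells, so the differences between the genotypes are given as a description, with no p-value for a member. Where a member is said to be past a threshold, that only places it in a fit over all genes.

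Most proteins of the family carry a pyrin domain, which binds other pyrin domains, and a HIN domain, which binds DNA. Aim2 senses DNA in the cytosol and assembles an inflammasome with the adaptor Pycard and the protease Casp1, whereas the Ifi202b protein lacks the pyrin domain and antagonises Aim2. Many members are induced by interferons, and gene content and expression of the cluster are known to vary between inbred mouse strains, Ifi202b most of all.

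RNA was read in 16 poly-A sequencing libraries of spleen cells enriched for CD8 T cells, which recognise and kill infected cells. The 4 groups of 4 libraries were Batf3 ko at 48 h, wt at 48 h, Batf3 ko at 72 h and wt at 72 h. The ko cells came from Batf3-/- mice, which lack the AP-1 group transcription factor Batf3 in every cell, and the labels give the strain C57BL/6 for both genotypes. All cells were activated with plate-bound anti-CD3e and anti-CD28 at 1 µg/ml each in medium with the cytokine IL-15 at 50 ng/ml. The age and number of the mice are not stated. Libraries of one group are described as technical replicates in the series text, so the p-values reflect how libraries varied and do not speak for variation among mice.

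Libraries held 29375818 to 39241169 counted reads. Batf3 had 2, 3, 7 and 6 reads in the ko libraries against 3065, 2505, 2892 and 3441 in wt at 48 h, and 0, 0, 11 and 0 in ko against 1046, 1139, 844 and 898 in wt at 72 h, so every library matched its genotype label. Cd8a was at 261 to 364 CPM (reads scaled to the library's total count) in all libraries of all groups. Replicate 4 of ko at 48 h and replicate 4 of wt at 72 h stood apart from their groups: their counts differed from those of the other replicates with a chi-square per degree of freedom of 24.0 to 45.9, against 6.36 to 23.8 among all other pairs. Results that depend on them are given with and without them.

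In the GENCODE M21 annotation of GRCm38 the 10 members lay between positions 173350879 and 174031810 of chromosome 1, a stretch of 680.9 kb. Batf3 lies on the same chromosome (191097847 to 191108945), 17.1 Mb away. In map order the members were Aim2, Ifi214, Ifi213, Ifi209, Ifi204, Mndal, Ifi211, Ifi203, Ifi202b and Ifi205, and 8 of them are read from the minus strand, all but Aim2 and Ifi209. The annotated span of Mndal takes in Ifi211 and overlaps Ifi203, on the same strand. Its exons overlap those of Ifi203 by 37 bases and share none with Ifi211.

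The family is a set of near copies, and this limits how reads can be assigned. Of the 50-base stretches in the Ifi211 transcript, 72.8% also occur in another gene, mostly Ifi205 (44.7%) and Ifi204 (30.1%). The share was 33.7% for Ifi209, nearly all of it with Ifi214, 20.02% for Ifi204, 19.6% for Mndal, 18.6% for Ifi205, 15.6% for Ifi213, 14.6% for Ifi214 and 12.4% for Ifi203. It was 0.742% for Aim2 and 0% for Ifi202b. How the authors' counting treated such reads is not stated in the sources, so levels of the members with shared stretches are uncertain, and the part of this in any difference was not tested.

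The promoters of the cluster carry a shared interferon motif, shown here because it is what most members have in common beside their position. RefSeq (GRCm38.p6) gave a promoter of 250 bases before and 50 bases after the start for 9 of the 10 members, Ifi203 and Mndal with 2 starts each. The core of the interferon-stimulated response element, GAAANNGAAA or its reverse TTTCNNTTTC, was found in 6 of those 9 genes, against 3.44% of 32851 mouse promoters of the same length. The gamma-activated site TTCNNNGAA, the same on both strands, was found in 1 member (Ifi202b), against 8.30% of promoters. The AP-1 motif TGANTCA, also the same on both strands, was found in 3 members (Ifi209, Mndal and Ifi203), against 7.81%. The search allowed matches to overlap, none of the matches shown overlapped another, and a match of letters is a description and not a shown binding site. The windows around all 8 matches in members follow, 5′ to 3′ on the gene's strand, all minus, with the core in capitals, the last 2 in the reverse letters.
Ifi214, chr1:173536012-173536051: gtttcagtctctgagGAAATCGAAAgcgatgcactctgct
Ifi213, chr1:173599321-173599360: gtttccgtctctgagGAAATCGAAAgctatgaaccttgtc
Mndal, chr1:173880199-173880238: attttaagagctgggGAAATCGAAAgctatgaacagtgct
Ifi203, chr1:173942503-173942542: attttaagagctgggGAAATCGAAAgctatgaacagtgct
Ifi211, chr1:173913059-173913098: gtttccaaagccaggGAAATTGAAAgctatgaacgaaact
Ifi205, chr1:174031865-174031904: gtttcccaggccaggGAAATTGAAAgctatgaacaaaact
Mndal (second start), chr1:173879988-173880027: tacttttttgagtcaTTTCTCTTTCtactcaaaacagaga
Ifi205 (second match), chr1:174031708-174031747: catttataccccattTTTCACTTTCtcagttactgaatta

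The window of Ifi203 is from its second start, and the promoter at its first start had no core match. The first window of Mndal and that of Ifi203 are the same over all 40 bases, and the whole promoters around them were 90.7% identical. In the first 6 windows the core had 2 forms: GAAATCGAAA (or reverse TTTCGATTTC) in 4 members and in 0.0487% of all promoters, and GAAATTGAAA (or reverse TTTCAATTTC) in Ifi211 and Ifi205 and in 0.116% of all promoters. The reverse matches at the second start of Mndal and after the start of Ifi205 had other letters between the repeats. Ifi211 and Ifi205 were also the 2 members at lower levels in ko cells at both times. This was noticed after their values were seen, and the 2 genes share transcript sequence. Whether core form goes with direction was not tested, since the members were picked on these contrasts. Ifi206, Ifi207 and Ifi208, family genes outside the members, had GAAATCGAAA. The ko over wt log2 fold changes of Ifi206 were -0.49 at 48 h and -0.69 at 72 h. Those of Ifi208 were 0.50 (SE 0.35) and 0.15 (SE 0.30), and Ifi207 had too few reads to test. Of the 4 members with GAAATCGAAA, Ifi203 and Ifi214 were higher in ko cells, and Mndal and Ifi213 were not past the threshold. The promoter letters are those of the reference genome and not of the mice sampled.

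The Ifi214 and Ifi209 promoters, on opposite strands, were 95.3% identical, yet Ifi209 had no core match. The stretch of Ifi209 most like the Ifi214 window, on the plus strand, had 36 of 40 bases the same. Its differences, counted from 1 at the 5′ end of the Ifi214 window and giving the base of Ifi214 first, were G7A, G16T, C27A and T40C, of which G16T falls on the first base of the core. The letters aligned with the core are in capitals.
Ifi209, chr1:173630765-173630804: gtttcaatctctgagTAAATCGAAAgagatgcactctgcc

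**Figure D1:**
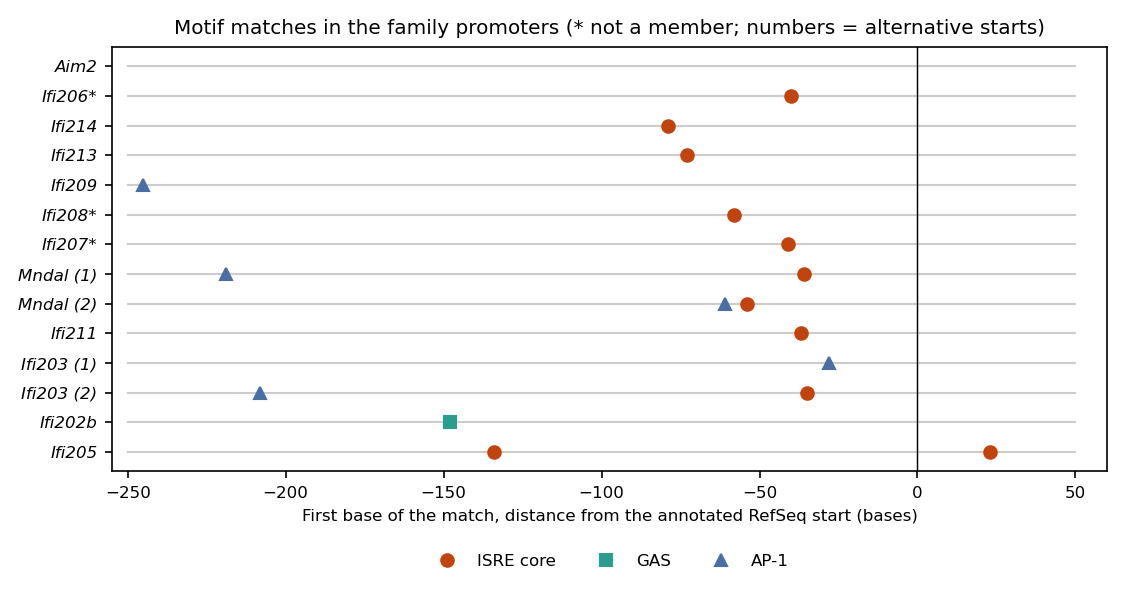
Positions of motif matches in the RefSeq promoters of 9 members and 3 other family genes (marked with an asterisk); the x axis is the distance in bases from the annotated start, circles are cores of the interferon-stimulated response element, squares gamma-activated sites and triangles AP-1 motifs. Circles stand 35 to 79 bases before the start in Ifi214, Ifi213, Mndal, Ifi211 and the second start of Ifi203, and at 134 bases before and 23 bases after it in Ifi205.

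The whole promoters of 3 members are shown because these genes differ most plainly between the genotypes: Ifi203 (second start), higher in ko cells, its neighbour Ifi211, lower in ko cells, and Ifi202b, read only in ko cells. All are on the minus strand, with matches to the 3 motifs in capitals.
Ifi203, chr1:173942443-173942742: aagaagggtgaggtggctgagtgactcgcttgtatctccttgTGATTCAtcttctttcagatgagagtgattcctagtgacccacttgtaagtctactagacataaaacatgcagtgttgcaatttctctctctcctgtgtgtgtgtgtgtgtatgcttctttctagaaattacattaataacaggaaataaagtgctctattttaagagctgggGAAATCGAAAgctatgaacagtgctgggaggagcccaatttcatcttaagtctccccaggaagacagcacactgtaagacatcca
Ifi211, chr1:173912997-173913296: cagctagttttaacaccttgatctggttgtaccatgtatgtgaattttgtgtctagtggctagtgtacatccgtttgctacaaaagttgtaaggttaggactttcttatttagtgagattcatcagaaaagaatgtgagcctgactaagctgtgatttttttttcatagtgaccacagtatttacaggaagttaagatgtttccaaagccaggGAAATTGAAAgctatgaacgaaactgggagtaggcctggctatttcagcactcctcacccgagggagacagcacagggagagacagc
Ifi202b, chr1:173982795-173983094: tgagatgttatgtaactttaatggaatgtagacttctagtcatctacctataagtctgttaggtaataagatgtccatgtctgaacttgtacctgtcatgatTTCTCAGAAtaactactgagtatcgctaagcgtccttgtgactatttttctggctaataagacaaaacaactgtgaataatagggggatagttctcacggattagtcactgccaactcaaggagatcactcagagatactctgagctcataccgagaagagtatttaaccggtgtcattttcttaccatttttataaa

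In ko cells the family did not differ from wt as a block: Ifi203 and Ifi214 were higher, Ifi211 and Ifi205 were lower, and Ifi202b was read only in ko cells, at both times. The other 5 members were not past the threshold used here at both times. With a threshold on the adjusted p of 0.05 (edgeR quasi-likelihood test over 15197 genes), 4 of the 10 members passed as higher (Ifi202b, Ifi203, Ifi214 and Aim2) and 2 as lower (Ifi211 and Ifi205) in ko cells at 48 h. Over all genes tested, 4.41% passed as higher and 2.66% as lower. At 72 h, 3 members passed as higher (the same without Aim2) and the same 2 as lower, beside 16.9% and 19.5% of all genes. Since the members were picked on these contrasts, nothing is read from those counts.

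**Figure D2:**
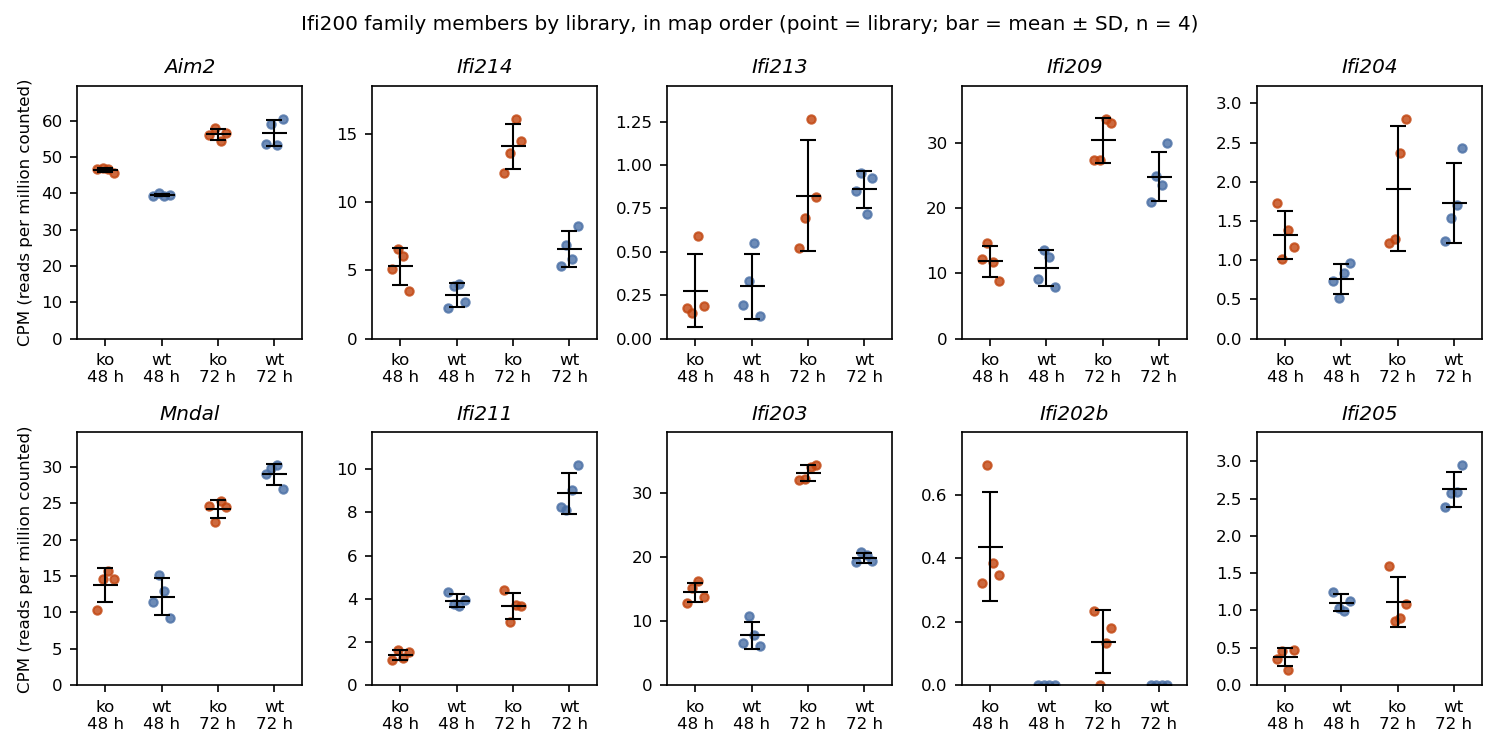
CPM of each member in each of the 16 libraries, one panel per gene in map order; points are libraries, bars the mean ± SD of 4, with ko left of wt at each time and the y axis starting at 0. Ifi203 is higher and Ifi211 and Ifi205 are lower in every ko library than in every wt library of the same time, and Ifi202b is at 0 in all 8 wt libraries.

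Aim2, the DNA sensor of the inflammasome, had the highest level of the family. Its level at 48 h was 46.6, 47.0, 46.5 and 45.7 CPM in ko libraries against 39.2, 40.0, 39.2 and 39.5 CPM in wt libraries. The groups did not overlap, and the log2 fold change was 0.27 (SE 0.06). Its level at 72 h was 56.1, 57.9, 54.2 and 56.6 CPM in ko libraries against 53.5, 58.9, 53.3 and 60.4 CPM in wt libraries, which overlapped. The log2 fold change at 72 h was 0.12 (SE 0.06), and it turned to -0.01 when libraries were scaled by their totals alone, a scaling that moved the median of all genes to -0.14, against -0.02 with TMM scaling.

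Ifi202b, the antagonist of Aim2, was read only in ko cells and at a low level. There were 11, 24, 15 and 11 reads in ko libraries at 48 h, against 0 in each of the 4 wt libraries. There were 8, 0, 4 and 6 reads in ko libraries at 72 h against 0 in each wt library, so one ko library was also at 0. Set against 3 reads over the wt group, the limit that a count of 0 allows, Ifi202b was at least 21.5-fold higher in ko cells at 48 h and at least 5.76-fold higher at 72 h. Per wt library, 3 reads correspond to 0.0765 to 0.102 CPM, and such limits cover counting error only. None of its 50-base stretches occur in another gene, and it passed the filter on low counts only through the 4 ko libraries at 48 h.

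Ifi204, a DNA sensor that signals through STING, was low in every group. At 48 h it had 1.73, 1.01, 1.39 and 1.17 CPM in ko libraries against 0.735, 0.516, 0.838 and 0.968 CPM in wt libraries. The ko libraries were all above the wt libraries, with a log2 fold change of 0.82 (SE 0.31) and not past the threshold, which it was in 1 of 25 alternatives, without both libraries that stand apart. At 72 h its groups overlapped, at 1.91 ± 0.793 CPM in ko and 1.73 ± 0.506 CPM in wt cells (SD, n = 4 each).

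Ifi203, a nuclear member of the family, was higher in ko cells at both times. The level at 48 h was 12.8, 15.1, 16.2 and 13.8 CPM in ko libraries against 6.56, 10.8, 7.75 and 6.09 CPM in wt libraries. The level at 72 h was 32.0, 32.1, 33.9 and 34.2 CPM in ko libraries against 19.1, 20.8, 20.2 and 19.4 CPM in wt libraries. The groups did not overlap at either time, and the log2 fold changes were 0.93 (SE 0.12) at 48 h and 0.86 (SE 0.11) at 72 h, from 0.73 to 1.12 over both times and all alternative settings.

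Ifi211, the next gene along the strand from Ifi203, went the other way. At 48 h it had 1.17, 1.64, 1.26 and 1.51 CPM in ko libraries against 4.30, 3.76, 3.64 and 3.95 CPM in wt libraries. At 72 h it had 4.39, 2.91, 3.70 and 3.65 CPM in ko libraries against 8.26, 8.10, 9.02 and 10.2 CPM in wt libraries. Every ko library was below every wt library of its time, with log2 fold changes of -1.45 (SE 0.16) and -1.15 (SE 0.14).

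Ifi205, at the far end of the cluster, was also lower in ko cells. At 48 h it had 0.351, 0.462, 0.206 and 0.473 CPM in ko libraries against 1.25, 1.03, 0.996 and 1.12 CPM in wt libraries. At 72 h it had 1.60, 0.865, 0.899 and 1.08 CPM in ko libraries against 2.38, 2.58, 2.59 and 2.94 CPM in wt libraries. The groups did not overlap, and the log2 fold changes, -1.53 (SE 0.28) and -1.11 (SE 0.24), were close to those of Ifi211. Reads per library from Ifi205 stood to those from Ifi211 as 0.264 ± 0.0685 in ko and 0.281 ± 0.00847 in wt cells at 48 h, and as 0.301 ± 0.0495 in ko and 0.296 ± 0.0151 in wt cells at 72 h (SD, n = 4 each).

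A ratio of reads within a library does not depend on how libraries are scaled. There were 10.5 ± 1.79 reads of Ifi203 per read of Ifi211 in ko cells and 2.01 ± 0.631 in wt cells at 48 h (SD, n = 4 each). At 72 h the ratio was 9.22 ± 1.53 in ko and 2.26 ± 0.274 in wt cells (SD, n = 4 each). It ranged from 7.28 to 12.9 over the 8 ko libraries and from 1.53 to 2.86 over the 8 wt libraries, so the genotypes did not overlap. Both genes belong to a set picked on opposite differences between the genotypes in these same libraries. A separation of this ratio follows from that choice and is only a description. The ratio also does not show which of the 2 genes differed.

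Mndal, named for its likeness to the human gene MNDA, has a span that takes in Ifi211 and overlaps Ifi203, and it followed neither. At 48 h its groups overlapped, at 13.8 ± 2.36 CPM in ko and 12.2 ± 2.51 CPM in wt cells (SD, n = 4 each). Levels at 72 h were 24.7, 22.4, 25.3 and 24.5 CPM in ko libraries against 29.0, 29.8, 30.2 and 27.0 CPM in wt libraries. The CPM values did not overlap at 72 h, but after TMM scaling the log2 fold change was only -0.13 (SE 0.11), and it was 0.22 (SE 0.12) at 48 h. Neither passed the threshold.

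Ifi214 and Ifi209, which lie on opposite strands with Ifi213 between them and have like promoters, differed in how far ko stood from wt. Ifi214 had 5.09, 6.58, 6.04 and 3.47 CPM in ko libraries against 2.23, 3.82, 4.03 and 2.701 CPM in wt libraries at 48 h, where the groups overlapped through replicate 4 of ko. At 72 h it had 12.1, 13.6, 16.1 and 14.5 CPM in ko libraries against 5.29, 6.89, 5.82 and 8.29 CPM in wt libraries, with no overlap. Its log2 fold change was 0.77 (SE 0.21) at 48 h and 1.22 (SE 0.19) at 72 h. At 48 h it was no longer past the threshold without replicate 1, 2 or 3 of ko or without replicate 1 or 4 of wt, while its log2 fold change stayed between 0.63 and 0.94 over 25 alternatives.

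Ifi209 had 12.2, 14.7, 11.7 and 8.77 CPM in ko libraries against 9.17, 13.6, 12.5 and 7.90 CPM in wt libraries at 48 h. Its values at 72 h were 27.5, 27.5, 33.8 and 33.1 CPM in ko libraries against 21.0, 24.9, 23.6 and 30.1 CPM in wt libraries. The groups overlapped at both times, with log2 fold changes of 0.18 (SE 0.18) and 0.41 (SE 0.16). Neither was past the threshold. That at 72 h was past it in 10 of 25 alternatives: with no filter or a filter on CPM, with only the groups compared, with exon length offsets, without both libraries that stand apart, and without replicate 2 or 4 of ko at 48 h, replicate 2 or 4 of wt at 48 h or replicate 4 of wt at 72 h. Reads of Ifi214 per read of Ifi209 were 0.444 ± 0.0521 in ko and 0.297 ± 0.0439 in wt cells at 48 h, and 0.463 ± 0.0278 in ko and 0.263 ± 0.0154 in wt cells at 72 h (SD, n = 4 each).

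Ifi213 was near the lower limit of detection. It had 6, 5, 23 and 6 reads in ko libraries against 7, 11, 21 and 5 reads in wt libraries at 48 h, and 18, 24, 38 and 27 reads in ko libraries against 26, 34, 21 and 29 reads in wt libraries at 72 h. The groups overlapped at both times. Its log2 fold changes, -0.06 (SE 0.50) and 0.05 (SE 0.41), changed sign in 5 of 23 and 4 of 24 alternative settings, so no direction is given.

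**Figure D3:**
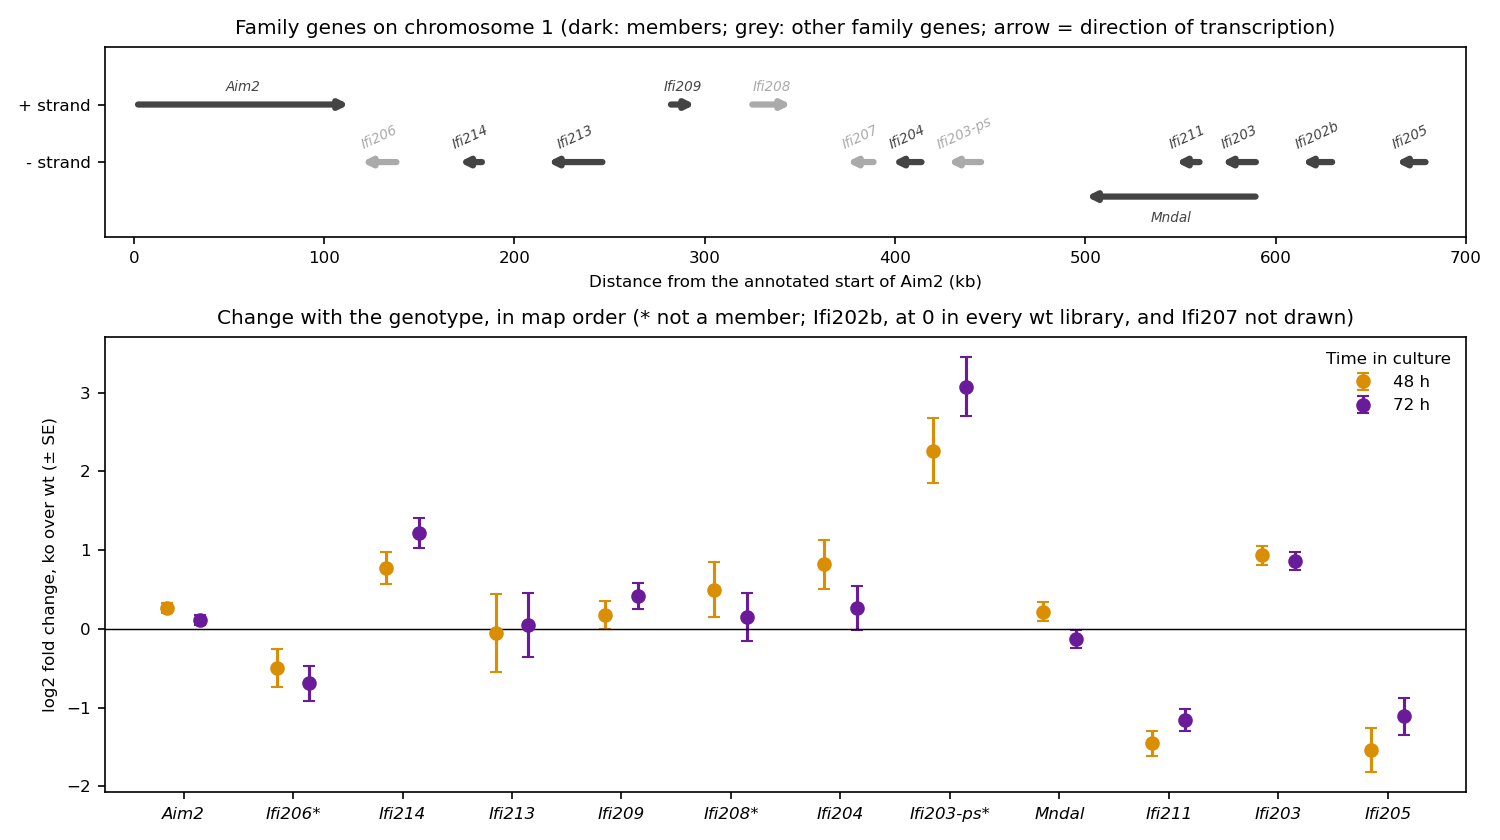
Above, family genes by distance in kb from the annotated start of Aim2, with arrows for the direction of transcription (dark for members, grey for the 4 other family genes). Below, the log2 fold change of ko over wt ± SE at 48 h and 72 h in the same order: neighbours Ifi211 and Ifi203 stand at -1.45 and 0.93 at 48 h and at -1.15 and 0.86 at 72 h.

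Without Ifi202b, whose fold change has no wt reads behind it, the members' median log2 fold change was 0.22 at 48 h, between -1.53 and 0.93, beside 0.01 over all genes. At 72 h the median was 0.12, between -1.15 and 1.22, beside -0.02 over all genes. In CPM, the ko and wt libraries did not overlap at 48 h for 6 members, 4 higher (Ifi202b among them) and 2 lower, and at 72 h for 5, 2 higher and 3 lower. The 3 lower include Mndal, at -0.13 (SE 0.11) after TMM scaling and not past the threshold. Scaling by totals alone, as CPM does, moved the median of all genes to -0.14 at 72 h. Over all genes 14.5% did not overlap at 48 h and 35.1% at 72 h, in either direction. The summed level of the 10 members was 95.7 ± 6.21 CPM in ko and 79.5 ± 7.80 CPM in wt cells at 48 h, and 166 ± 6.85 CPM in ko and 151 ± 9.08 CPM in wt cells at 72 h (SD, n = 4 each). In bulk RNA, fewer cells of a type and less RNA per cell cannot be told apart.

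The order of levels within the cluster differed between the genotypes. Per kb of exon, Aim2 led in every group, from 11.3 ± 0.107 in wt cells at 48 h to 16.2 ± 1.05 CPM per kb in wt cells at 72 h. At 72 h in ko cells Ifi209 (8.59 ± 0.968), Mndal (6.68 ± 0.348), Ifi203 (4.93 ± 0.178) and Ifi211 (2.05 ± 0.339 CPM per kb) came next. In wt cells at 72 h Mndal (7.99 ± 0.395) and Ifi209 (7.02 ± 1.08 CPM per kb) overlapped, and Ifi211 (4.98 ± 0.530) stood above Ifi203 (2.96 ± 0.116 CPM per kb) without overlap. Ifi203 was above Ifi211 without overlap in ko cells at both times, and below it without overlap in wt cells at both times. In reads Ifi203 was above Ifi211 in every library, so this switch rests on dividing by exon length. The length was 6706 bases over 9 transcripts for Ifi203 and 1785 bases over 1 transcript for Ifi211. Which transcripts were in use was not tested. These orders come from the same libraries as the contrasts that picked the genes.

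The members were picked on differences between the genotypes and not between the times, though from the same libraries. With time nearly all of them rose. Of the 10 members, Ifi202b passed the filter on low counts only through libraries at 48 h and Ifi213 only through libraries at 72 h, which favours a fall in the first and a rise in the second, so both are described apart and with no p. Of the other 8, 7 rose in ko cells and 8 in wt cells between 48 h and 72 h (edgeR, adjusted p below 0.05), and 0 fell. Over all genes 34.4% rose and 33.6% fell in ko cells, and 33.6% rose and 29.9% fell in wt cells. The median log2 change of the 8 members was 1.34 in ko and 1.17 in wt cells, beside 0.03 and 0.05 over all genes. Ifi203, Ifi211, Ifi205, Ifi209 and Ifi214 all rose by at least 2-fold in each genotype, so members that stood on opposite sides in ko cells rose together with time.

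**Figure D4:**
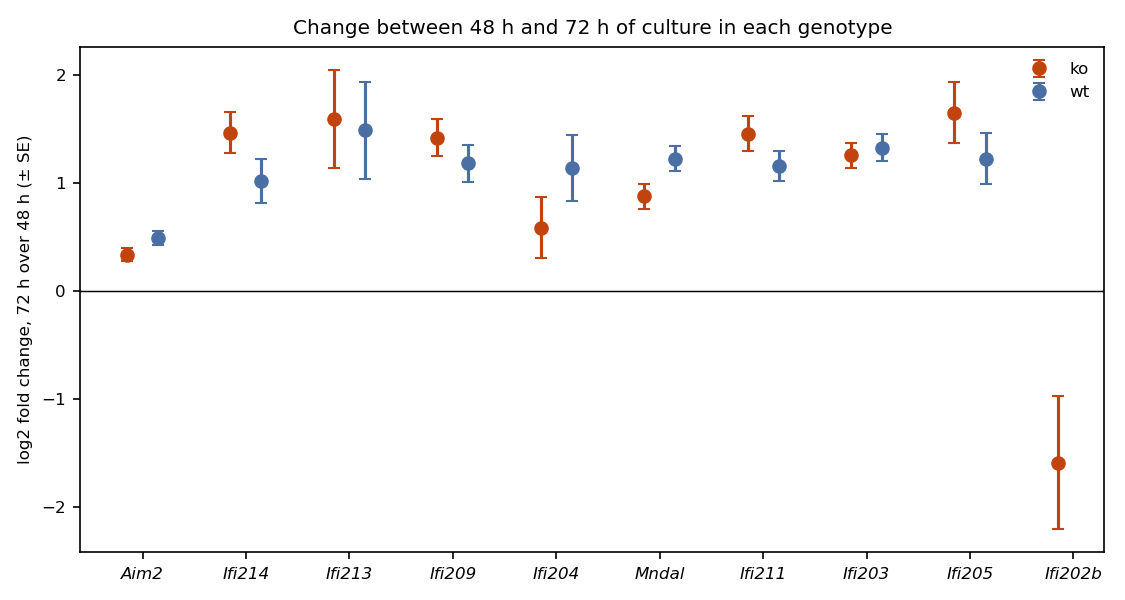
Log2 fold change of 72 h over 48 h ± SE for each member, ko left of wt within each gene (Ifi202b in ko only, since every wt library was at 0). All members but Ifi202b stand above 0 in both genotypes, Aim2 lowest in ko at 0.34 and in wt at 0.49.

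Ifi203 averaged 33.1 ± 1.19 CPM at 72 h against 14.5 ± 1.51 CPM at 48 h in ko cells, and 19.9 ± 0.778 CPM at 72 h against 7.79 ± 2.10 CPM at 48 h in wt cells (SD, n = 4 each). Its log2 change was 1.26 (SE 0.12, adjusted p = 9.1e-10) in ko and 1.33 (SE 0.12, adjusted p = 1.1e-09) in wt cells (edgeR). Ifi211 averaged 3.66 ± 0.606 CPM at 72 h against 1.397 ± 0.220 CPM at 48 h in ko cells, and 8.89 ± 0.947 CPM at 72 h against 3.91 ± 0.288 CPM at 48 h in wt cells (SD, n = 4 each). It rose by 1.46 (SE 0.16, adjusted p = 1.8e-08) in ko and 1.16 (SE 0.14, adjusted p = 9.0e-08) in wt cells by edgeR. In ko cells at 72 h Ifi211 ranged from 2.91 to 4.39 CPM, which overlapped its range in wt cells at 48 h, 3.64 to 4.30 CPM.

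Ifi205 rose by 1.65 (SE 0.28, adjusted p = 1.4e-05) in ko and 1.23 (SE 0.23, adjusted p = 6.6e-05) in wt cells, by edgeR on the log2 scale. Ifi214 rose by 1.47 (SE 0.19, adjusted p = 4.3e-07) in ko and 1.02 (SE 0.20, adjusted p = 0.000148) in wt cells. Ifi209 rose by 1.42 (SE 0.17, adjusted p = 3.4e-07) in ko and 1.18 (SE 0.17, adjusted p = 5.2e-06) in wt cells. For these 3 genes every library at 72 h was above every library at 48 h of the same genotype.

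Mndal and Aim2 rose in both genotypes, and Ifi204 passed the test in wt cells. Mndal rose by 0.88 (SE 0.12, adjusted p = 4.6e-07, edgeR) in ko and 1.23 (SE 0.12, adjusted p = 2.5e-09) in wt cells, and Aim2 by 0.34 (SE 0.06, adjusted p = 4.4e-05) in ko and 0.49 (SE 0.06, adjusted p = 2.6e-07) in wt cells. Ifi204 rose by 1.14 in wt cells (SE 0.30, adjusted p = 0.00205, edgeR), and its value in ko cells, 0.59 (SE 0.29, adjusted p = 0.0721), did not pass.

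Ifi213 and Ifi202b rest on few reads. The log2 change of Ifi213 was 1.60 (SE 0.45) in ko and 1.49 (SE 0.45) in wt cells. Ifi202b had 18 reads over the 4 ko libraries at 72 h against 61 at 48 h, a log2 change of -1.59 (SE 0.62), the only member with a value below 0, and the ranges of the 2 times did not overlap.

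The difference between times in the effect of the genotype is given with no test, being built from the contrasts that picked the members. Taken as the ko over wt log2 fold change at 72 h minus that at 48 h, it was 0.45 (SE 0.28) for Ifi214, 0.43 (SE 0.36) for Ifi205, 0.30 (SE 0.21) for Ifi211 and 0.24 (SE 0.24) for Ifi209. It was -0.07 (SE 0.17) for Ifi203, -0.16 (SE 0.09) for Aim2, -0.35 (SE 0.17) for Mndal and -0.55 (SE 0.42) for Ifi204.

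The 4 other annotated genes of the cluster in the table were read too. Ifi203-ps, a pseudogene that shares 24.3% of its 50-base stretches with Ifi203, was higher in every ko library, like Ifi203, with 12, 25, 35 and 20 reads in ko libraries against 2, 6, 8 and 4 in wt libraries at 48 h. At 72 h it had 59, 83, 48 and 48 reads in ko libraries against 8, 8, 9 and 4 in wt libraries. The log2 fold changes were 2.26 (SE 0.42) and 3.07 (SE 0.37), larger than those of Ifi203 itself. Ifi206 stood at log2 fold changes of -0.49 (SE 0.24) and -0.69 (SE 0.22), with groups that overlapped at 48 h and not at 72 h, when it passed the threshold as lower in ko cells. Ifi208 differed within its spread, at 0.50 (SE 0.35) and 0.15 (SE 0.30), and Ifi207 had 3 reads in all, too few to test.

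Genes beside the cluster were looked at for the same pattern. Within 1 Mb, 9 genes outside the family were tested, all on the side of Aim2. Fcrl6, a receptor-like gene of cytotoxic lymphocytes, was past the threshold at 48 h at a low level (0.258 ± 0.178 CPM in ko and 0.0422 ± 0.0389 CPM in wt cells, SD, n = 4 each; log2 fold change 2.59, SE 0.67), and lost it without replicate 2 of ko (1.99) or replicate 1 (2.198) or 4 (2.42) of wt. At 72 h Pigm, an enzyme of GPI anchor synthesis, was past it (15.8 ± 0.723 CPM in ko and 21.3 ± 1.51 CPM in wt cells, SD, n = 4 each; log2 fold change -0.30, SE 0.08), but not with exon length offsets (-0.19). The remaining 7, Gm37145, Igsf9, Tagln2, Gm37125, Cfap45, Dusp23 and Gm2710, were not past the threshold at either time. Tagln2, a highly expressed actin-binding protein gene, had 457 ± 30.2 CPM in ko and 448 ± 17.9 CPM in wt cells at 48 h (SD, n = 4 each).

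Along chromosome 1, the 10 Mb stretch that holds the cluster, between 10 and 20 Mb before Batf3, had 20 of 103 tested genes past the threshold at 48 h (19.4%), in either direction. Over the whole chromosome without Batf3 it was 8.84% and over the other chromosomes 6.96%. The stretch includes 13 tested family genes, part of them picked on this contrast, and of the 90 others 13 were past the threshold (14.4%). Of those 90, 3 were past it with a difference of at least 2-fold (3.33%), against 1.34% of the chromosome, family included, and 0.594% of the other chromosomes. At 72 h the same stretch had 34 of 103 past the threshold (33.0%), 27 of them among the 90 genes outside the family, against 39.2% of the chromosome and 36.2% elsewhere. Of the 90, 2 were past it at 72 h with a difference of at least 2-fold (2.22%). That share was 4.14% for the chromosome, family included, and 2.67% elsewhere. These shares are a description, with no test. Whether the ko mice carry other sequence around Batf3 than the wt mice was not tested, since only counts per gene were used.

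**Figure D5:**
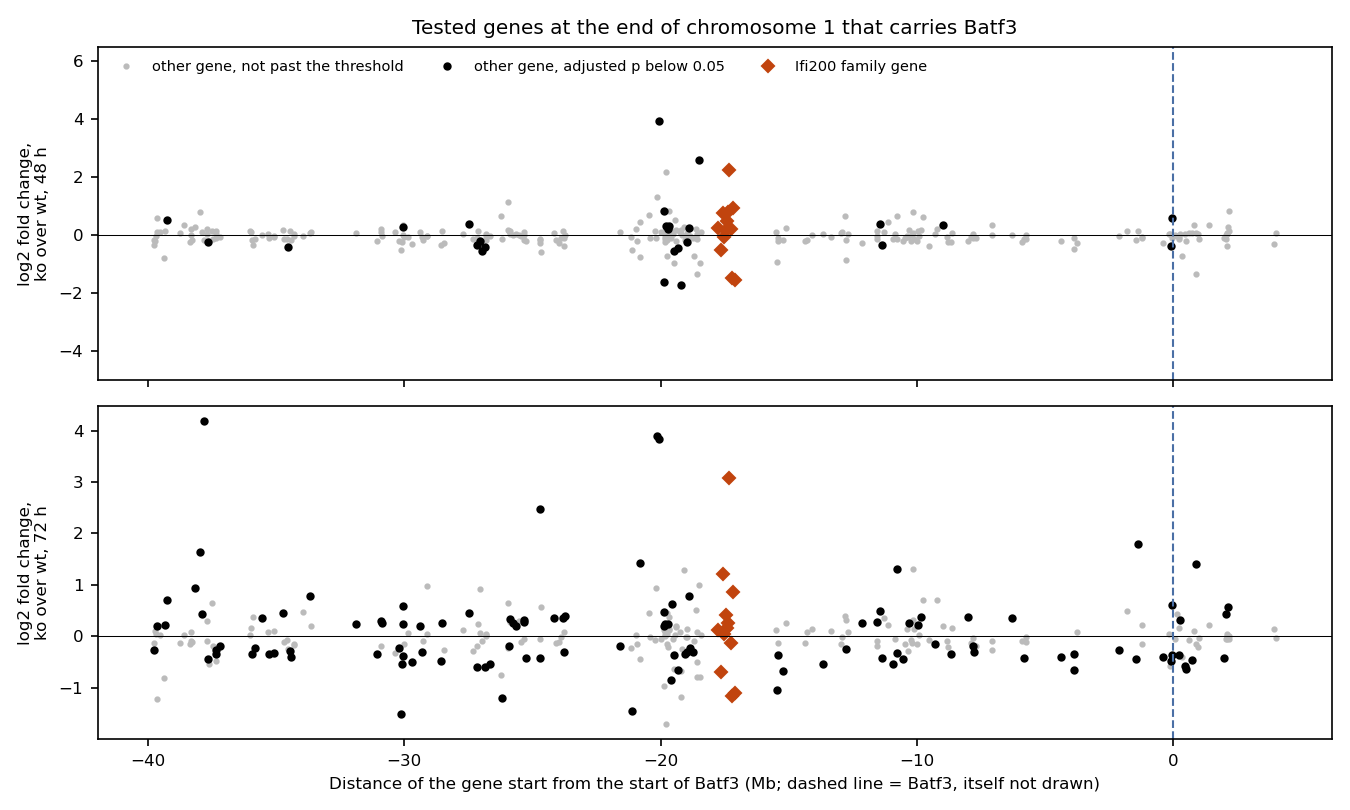
Log2 fold change of ko over wt for tested genes within 40 Mb of Batf3, at 48 h (above) and 72 h (below), by distance in Mb from the start of Batf3 (dashed line). Diamonds are Ifi200 family genes without Ifi202b, black points other genes past the threshold and grey points the rest; the family stands about 17.1 Mb before Batf3, with values from -1.53 to 2.26 at 48 h.

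The pathways around the family were read from lists chosen with earlier results of these data known. Each count below stands beside the same shares of all genes: between genotypes at 48 h 4.41% higher and 2.66% lower in ko, at 72 h 16.9% higher and 19.5% lower, and, with time, 34.4% up and 33.6% down in ko and 33.6% up and 29.9% down in wt cells. In ko cells 1 of 11 tested inflammasome genes passed as higher and 0 as lower at 48 h, and at 72 h 3 passed as higher and 2 as lower. The gene at 48 h was Casp4, the protease of the noncanonical inflammasome, at 14.0 ± 1.99 CPM in ko and 7.65 ± 0.511 CPM in wt cells (SD, n = 4 each), a log2 fold change of 0.91 (SE 0.13, adjusted p = 5.3e-05, edgeR), and it was higher by 1.05 (SE 0.12, adjusted p = 9.3e-07) at 72 h. Pycard, the adaptor that Aim2 recruits, was higher at 72 h by 0.44 (SE 0.10, adjusted p = 0.00176, edgeR), while Nlrc3 and Nek7, regulators of sensing pathways, were lower, with log2 fold changes of -0.35 (SE 0.11) and -0.24 (SE 0.07). Nlrc3 lost the call without replicate 3 of ko at 72 h (-0.28) and with exon length offsets (-0.25), and Nek7 with exon length offsets (-0.13). At 48 h Pycard was at 0.31 (adjusted p = 0.073, edgeR), and it passed as higher in 5 of 25 alternatives, among them without both libraries that stand apart (0.37), with adjusted p from 0.0029 to 0.291 over all of them.

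With time, 8 of the 11 inflammasome genes rose in ko cells and 8 in wt cells, while 0 fell in ko and 1 in wt cells. Casp1 rose by 1.05 (SE 0.13, adjusted p = 1.1e-07, edgeR) in ko and 1.00 (SE 0.13, adjusted p = 2.8e-07) in wt cells, and Gsdmd, the pore-forming target of Casp1, by 1.12 (SE 0.11) in ko and 0.86 (SE 0.10) in wt cells. Casp1 and Gsdmd thus rose alongside Aim2 in both genotypes. Of 20 cytosolic DNA sensing and STING genes, 1 passed as higher and 2 as lower in ko cells at 48 h, with 1 and 10 at 72 h. Of the 20, 3 rose and 12 fell with time in ko cells, and 5 rose and 10 fell in wt cells. Among those that fell, Dhx9 had a log2 change of -1.40 (SE 0.05) in ko and -1.18 (SE 0.05) in wt cells. That of Hmgb1 was -0.89 (SE 0.07) in ko and -0.76 (SE 0.07) in wt cells. Among the fewer that rose, Irf7, an interferon regulatory factor, rose by 1.34 (SE 0.17) in ko and 1.64 (SE 0.17) in wt cells.

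Few type I interferon stimulated genes passed the threshold between genotypes at 48 h. Of the interferon gamma induced genes 4 of 23 passed then, all lower in ko cells, beside 2.66% of all genes. At 72 h more genes of both lists were lower than higher in ko cells. The list of 40 type I interferon stimulated genes held 1 higher in ko cells (Dhx58, log2 fold change 0.55) and 1 lower (Usp18, -0.77) at 48 h, and 4 higher and 13 lower at 72 h, among them Ifit3 (1.12) and Ifit1 (0.99) higher and Xaf1 (-0.93) and Mx1 (-0.81) lower. The medians of that list were -0.01 at 48 h and -0.19 at 72 h. Of 23 interferon gamma induced genes, 0 were higher and 4 lower at 48 h (Gbp2, -0.40, Iigp1, -0.36, Tgtp1, -0.30, and Igtp, -0.21), and 2 were higher and 7 lower at 72 h. The medians of the interferon gamma list were -0.08 at 48 h and 0.0009 at 72 h. Of 15 interferon receptor and signalling genes, 1 was higher (Ifngr1, 0.33) and 1 lower (Usp18) at 48 h, and 2 were higher and 4 lower at 72 h. At 48 h Dhx58 lost its call without replicate 2 (0.48) or 3 (0.48) of ko or replicate 1 (0.47) or 4 (0.44) of wt, Iigp1 without replicate 1 (-0.36) or 4 (-0.26) of ko or replicate 1 (-0.36) or 2 (-0.27) of wt, Tgtp1 without replicate 3 (-0.28) of ko or replicate 1 (-0.26) or 2 (-0.26) of wt, and Igtp without replicate 1 (-0.21) or 2 (-0.21) of ko or replicate 1 (-0.20), 2 (-0.20) or 4 (-0.21) of wt. The values in parentheses are log2 fold changes without that library. Dhx58 at 48 h also lost its call with only the groups compared (0.54). Iigp1 lost it with only the groups compared (-0.36), exon length offsets (-0.32) or a replicate block (-0.36).

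With time, 16 of the 40 type I interferon stimulated genes rose and 9 fell in ko cells, and 19 rose and 7 fell in wt cells, with medians of 0.23 and 0.25, beside 1.34 and 1.17 for the 8 members above. Dhx58, a regulator of RNA sensing, rose by 2.50 (adjusted p = 2.2e-14, edgeR) in ko and 2.80 (adjusted p = 1.1e-14) in wt cells. The interferon gamma induced genes split, with 8 up and 11 down in ko cells and 9 up and 10 down in wt cells. Gbp3 rose by 1.47 in ko and 1.37 in wt cells, whereas Iigp1 fell by 3.0 in ko and by 2.75 in wt cells on the log2 scale.

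Markers of other cells are given because several Ifi200 genes are also expressed by myeloid cells. The summed level of 16 myeloid markers was 176 to 189 CPM in ko and 142 to 151 CPM in wt libraries at 48 h, and 255 to 270 CPM in ko and 188 to 209 CPM in wt libraries at 72 h. Most of it was Ly6c2, which activated CD8 T cells also express, at 154 to 169 CPM in ko and 130 to 138 CPM in wt libraries at 48 h. Of the 16 markers, 5 were tested, of which 3 were higher in ko cells at 48 h and 5 at 72 h. At 72 h Ccr2 was at 43.5 to 49.5 CPM in ko and 18.7 to 27.0 CPM in wt libraries. Cd68 was at 7.89 to 11.1 CPM in ko and 5.41 to 6.71 CPM in wt libraries at 72 h. Tyrobp was at 2.83 to 3.14 CPM in ko and 1.28 to 1.54 CPM in wt libraries at 72 h, while Fcer1g overlapped. Adgre1, S100a8 and S100a9 were at 0 in every library, and Lyz2 reached at most 0.202 CPM. The dendritic markers summed to 3.55 to 5.99 CPM over all libraries, with Clec9a, Siglech and Cd209a at 0 in every library. The B cell markers summed to 286 to 319 CPM in ko and 247 to 258 CPM in wt libraries at 48 h, nearly all of it Ighm, and to 304 to 336 CPM in ko and 224 to 294 CPM in wt libraries at 72 h. The 8 markers of NK and gamma delta T cells summed to 259 to 276 CPM in ko and 214 to 248 CPM in wt libraries at 48 h, and to 503 to 548 CPM in ko and 416 to 438 CPM in wt libraries at 72 h. Most of it was Nkg7, which cytotoxic T cells also express, at 192 to 213 CPM in ko and 152 to 192 CPM in wt libraries at 48 h. Of these 8 markers, 3 passed as higher and 0 as lower in ko cells at 48 h, and 3 as higher and 1 as lower at 72 h. Eomes went the other way from the sum at 72 h, at 31.0 to 35.7 CPM in ko and 47.4 to 55.3 CPM in wt libraries. The part of these markers in the differences of the family was not tested.

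The genes whose levels followed the members most closely were found among 9273 genes of mean CPM of at least 8, by Pearson's r of log2(CPM + 1) over the 16 libraries. The libraries share their genotype and time groups, so these values are a description. Ifi203 was nearest to St6gal1 (r = 0.984), a sialyltransferase, and Arl4c (0.968), Ifi214 to Klrc1 (0.974), an NK receptor chain, and AW112010 (0.972), and Ifi209 to Ngly1 (0.979) and the GTPase Gbp3 (0.977). Ifi211 and Ifi205 shared their nearest gene, Gm6969 (0.980 and 0.973), followed by Stat4 (0.973) and Cnot6l (0.961). Mndal was nearest to Gbp7 (0.978) and Mef2a (0.977), and Aim2 to the granzyme gene Gzmc (0.971) and Spp1 (0.969). For the low members Ifi202b, Ifi204 and Ifi213 no r was above 0.895. Ifi202b was nearest to Lrrc40 (0.854) and Ankrd13c (0.847), Ifi204 to Snx20 (0.878) and Mdh1 (0.8705), and Ifi213 to Serhl (0.895) and Zfp317 (0.895).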

How the data were processed

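Per the labels' protocols, stranded libraries were prepared from 100 ng of RNA after poly-A capture. The submitters' processing notes name bcl2fastq 2.2.0, STAR 2.7, featureCounts and GRCm38. The deposited table gives unnormalized whole-number counts per gene. Neither the annotation release nor the handling of strand and of multiply matching reads is stated. GENCODE M21, used here for symbols and exons, held 55154 of the identifiers.

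The members and gene lists were chosen with earlier results of these data known. CPM divided each count by its library's total. One edgeR 4.0.16 model (R 4.3.3) covered all 16 libraries, with TMM factors, the filterByExpr rule at 10 reads and a two-sided robust quasi-likelihood F test. P-values were adjusted by Benjamini and Hochberg's method over 15197 genes, with a threshold of 0.05, and the model was checked on simulated counts. SE is the log2 fold change over the square root of F. All 10 members passed the filter, Ifi202b only through ko at 48 h and Ifi213 only through 72 h. No 2 libraries agreed within sampling noise. Named were all members and family genes, tested genes within 1 Mb, up to 4 genes of each list with the largest changes, and the 2 genes nearest to each member.

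As alternatives, libraries were scaled by median ratios or by totals, DESeq2 1.42.0 was run, 2 other filters were set, only the compared groups were fitted, a replicate block or exon length offsets were added, and each library in turn, or both that stand apart, were left out.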

Additional observations from a re-analysis of the deposited data

Results flagged for a closer look

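Of 42 sets of 4 libraries read for a stray value (each member and Batf3 in each group, without sets that were all 0), 2 had one library far from the other 3. Chance marks about 1 set in 20. Ifi213 stood at 0.591 CPM in replicate 3 of ko at 48 h, against 0.144 to 0.189 CPM in the other 3 libraries of that group. Batf3 stood at 0.366 CPM in replicate 3 of ko at 72 h, that is 11 reads, against 0 in the other 3.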

How the results depend on the processing

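Of 1236 alternative values for single family genes, 1217 kept their direction and side of the threshold over time, or, between genotypes, moved by less than 1 SD, and no called value reversed. Of 200 alternative counts of members, 191 were within 1.5 times the main count. Members higher in ko cells at 48 h numbered 4, and 2 to 4 when one library was left out, 2 without replicate 2 of ko at 48 h (Ifi202b and Ifi203). Members higher at 72 h numbered 3, and 5 when both libraries that stand apart were removed, which adds Aim2 and Ifi209. Members past the threshold as lower at 72 h than at 48 h in ko cells numbered 1 (Ifi202b, which the filter favours) and 0 with DESeq2, with no filter on low counts, with a filter of CPM of at least 1 in 4 libraries (which leaves Ifi202b out) and with a replicate block, and 0 to 1 with one library left out, 0 without replicate 2 of ko at 48 h or replicate 2 or 3 of ko at 72 h. Same-numbered libraries of 2 groups deviated together weakly or not at all (r from -0.25 to 0.271). Such values neither show nor exclude that the numbers pair the samples, and the block changed no other count of members. Ifi204 in ko cells, at an adjusted p of 0.0721 over time, passed with exon length offsets (0.0183) and without replicate 1 of ko at 48 h or replicate 1 or 2 of ko at 72 h, with a range of 0.0183 to 0.320 over 25 alternatives. Of all genes tested, 670 passed as higher and 405 as lower in ko cells at 48 h, but 1379 and 1173 when both stray libraries were removed, with 302 to 1059 and 171 to 896 with one library left out, and 819 lower with DESeq2. For 72 h, library-size scaling gave 1464 higher and 4779 lower, against 2565 and 2961. The causes were not tested. Depth limits Ifi202b, Ifi213 and Ifi205.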
